A study of Arabidopsis thaliana with 18 samples.

Results

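The comparison set germinating seed of hat2, an Arabidopsis thaliana line carrying a T-DNA insertion at HAT2, against seed of Col-0, the wild-type accession in which the line was made. Its members were all genes with enough counts for a test, which were 19100 of the 37336 genes in the deposited count table, measured in 2 hat2 and 2 Col-0 libraries of the 18 in the series. A T-DNA is a stretch of plasmid DNA that Agrobacterium places in the plant genome. Per the study's methods the line was homozygous and held a single insertion, so hat2 stands for 1 allele in 1 line. Both genotypes were sown on the same sucrose-containing medium, kept 48 h in cold and darkness (stratification) and then held 24 h in continuous light. The other 14 libraries came from 7 further T-DNA lines treated in the same way (vnd2, smb, obp1, athb25, lmi1, wrky14 and athb15, with 2 libraries each), and they entered the same model and serve as a further reference. In 2 of these lines, obp1 and wrky14, the transcript of the targeted gene was not lower than in Col-0. OBP1 had 13.9 and 11.5 CPM (counts scaled to library size) in the libraries labelled obp1, against 8.93 and 8.45 CPM in Col-0, and WRKY14 had 9.58 and 11.2 CPM in the libraries labelled wrky14, against 0.287 and 0.341 CPM in Col-0.

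HAT2 belongs to class II of the homeodomain-leucine zipper (HD-ZIP) transcription factors, which bind DNA as dimers and act mostly as transcriptional repressors. Several members, HAT2 among them, are induced by auxin, and others such as ATHB2 are induced by shade. As seed germinates, transcripts of the seed filling programme (storage proteins, oil body proteins and protective late embryogenesis abundant proteins) are cleared. Meanwhile genes for chloroplasts and photosynthesis are switched on in the cotyledons.

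Totals were 32025990 and 27716858 counts in the hat2 libraries, against 20692809 and 26112879 in the Col-0 libraries. Differences are log2 fold changes of hat2 over Col-0 with their standard error (SE). Genes were called at a Benjamini-Hochberg adjusted p under 0.01 in edgeR's quasi-likelihood test over all 19100 genes. Pearson's r of log2 CPM was 0.995 between the hat2 libraries and 0.994 between the Col-0 libraries, and 0.990 to 0.993 between genotypes. The sources do not say whether replicates came from separate seed pools, so p-values measure the spread between these libraries, which may be technical. In whole seed, fewer cells of a type and less RNA per cell cannot be told apart.

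HAT2 itself was lower in hat2 but not lost. The gene (AT5G47370) lies on the minus strand at chr5:19216271-19218007 (TAIR10) and has 4 exons with a summed length of 1423 bases. It had 176 and 141 counts in the hat2 libraries, against 231 and 279 counts in the Col-0 libraries. These were 5.55 and 5.04 CPM in hat2, against 11.0 and 10.6 CPM in Col-0. Both hat2 libraries were the lowest of all 18, and the 14 libraries of the other mutants ranged from 8.87 to 12.4 CPM. The log2 fold change was -1.02 (SE 0.12, adjusted p = 0.000148), which put hat2 at 49.0% of Col-0. It stayed between -0.95 and -1.09 when any 1 of the 4 libraries was left out, and passed the threshold each time.

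**Figure D1:**
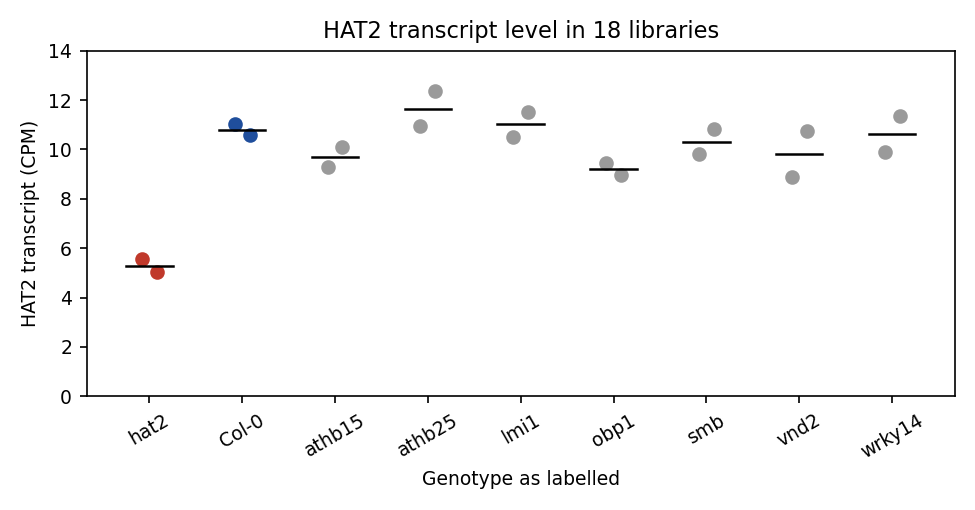
HAT2 transcript level in each of the 18 libraries, in CPM on a linear axis that starts at 0, with 1 point per library and genotypes side by side. The 2 hat2 points, at 5.55 and 5.04 CPM, lie below the 14 points of the other mutants, at 8.87 to 12.4 CPM, and below the 2 Col-0 points, at 11.0 and 10.6 CPM.

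The genotyping primers of the line show which stretch of the gene was tested for the insertion, since the exact insertion point is not given in the sources used here. Both matched the TAIR10.1 genome exactly, RP at chr5:19216078-19216098 on the plus strand and LP at chr5:19217315-19217335 on the minus strand.
RP: cggaaaagcaattgaagtcag
LP: tttccatcaacggttaactgc
The wild-type product between them spans 1258 bases and covers 1065 bases, or 61.3%, of the gene, from beyond its 3′ end into the second exon. The 672 bases at the 5′ end, with the whole first exon (19217497 to 19218007), lie outside it. The counts are summed over all exons, so reads from either side of an insertion cannot be told apart here. None of the 10 tested genes on either side of HAT2 was called (0 of 20 by edgeR, with 6 at an unadjusted p under 0.05 and 0 called by the Wald test of DESeq2). Over all genes tested, 15.69% had an unadjusted p under 0.05, and 257 were called by DESeq2.

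In all, 126 genes (0.660% of those tested) were called in hat2 against Col-0, 75 higher (0.393%) and 51 lower (0.267%). Most changes were small: 23 calls were of at least 2-fold, 7 of them higher and 16 lower in hat2, and the median over all genes was -0.01. By annotation, 119 were protein-coding genes, 5 were pseudogenes and 2 were non-coding RNAs. The hat2 and Col-0 ranges overlapped in 0 of the 126. For scale, both hat2 libraries lay above both Col-0 libraries in 20.9% of all genes tested and below them in 24.5%.

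How many genes passed depended on single libraries. Without hat2 replicate 1 there were 19 calls, of which 18 were among the 126, and without hat2 replicate 2 there were 93, of which 72 were. Without Col-0 replicate 1 there were 13, all 13 among the 126, and without Col-0 replicate 2 there were 32, of which 30 were. Of the 126 genes, 12 passed in all 4 of these fits and 47 in none. HAT2, the 2S albumin gene SESA2 and HEMA1, the first committed enzyme of tetrapyrrole synthesis in plastids, were among the 12, as were AT4G08093, AT1G64795, AT1G67105, AT5G35935, AT1G20390, AT5G33395, AT5G33390, AT5G23380 and HSP70-2 (the last 2 named after their values were seen). Each such fit has 1 library in a group and assumes that it varies like the other genotypes.

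The other mutants show which side of a difference stood apart. Among the 75 genes higher in hat2, both hat2 libraries were the highest of 18 for 6 genes, and both Col-0 libraries were the lowest for 16. Over all genes tested, such patterns were found in 0.503% and 1.93%. Among the 51 lower genes, both hat2 libraries were the lowest of 18 for 18, and both Col-0 libraries were the highest for 20, beside 0.969% and 2.04% over all genes tested. Called genes already have hat2 and Col-0 apart, which by itself makes either group more likely to lie at an end. The shares over all genes are therefore not a like comparison. Of the hat2 calls, 7 were called against Col-0 in no other mutant. The libraries labelled obp1 shared 92 of the hat2 calls (73.0%), all 92 in the same direction. Shared calls numbered 42 in athb25 (40 in the same direction), 41 in lmi1 (40) and 41 in vnd2 (27). They numbered 29 in wrky14 (27), 27 in smb (19) and 8 in athb15 (7). All these contrasts use the same Col-0 libraries, and the part those libraries play in the sharing was not tested. Against the mean of the other 7 mutants, a contrast that uses no Col-0 library, 242 genes (1.27%) were called, 103 higher (0.539%) and 139 lower (0.728%) in hat2. The paper reports that every line in this mean germinated late, whereas hat2 did not. This reference therefore also differs from hat2 in reported germination timing, and the part this plays in the differences was not tested. Leaving out of that mean the libraries labelled obp1 and wrky14 gave 369 calls (1.93%), 186 higher and 183 lower.

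**Figure D2:**
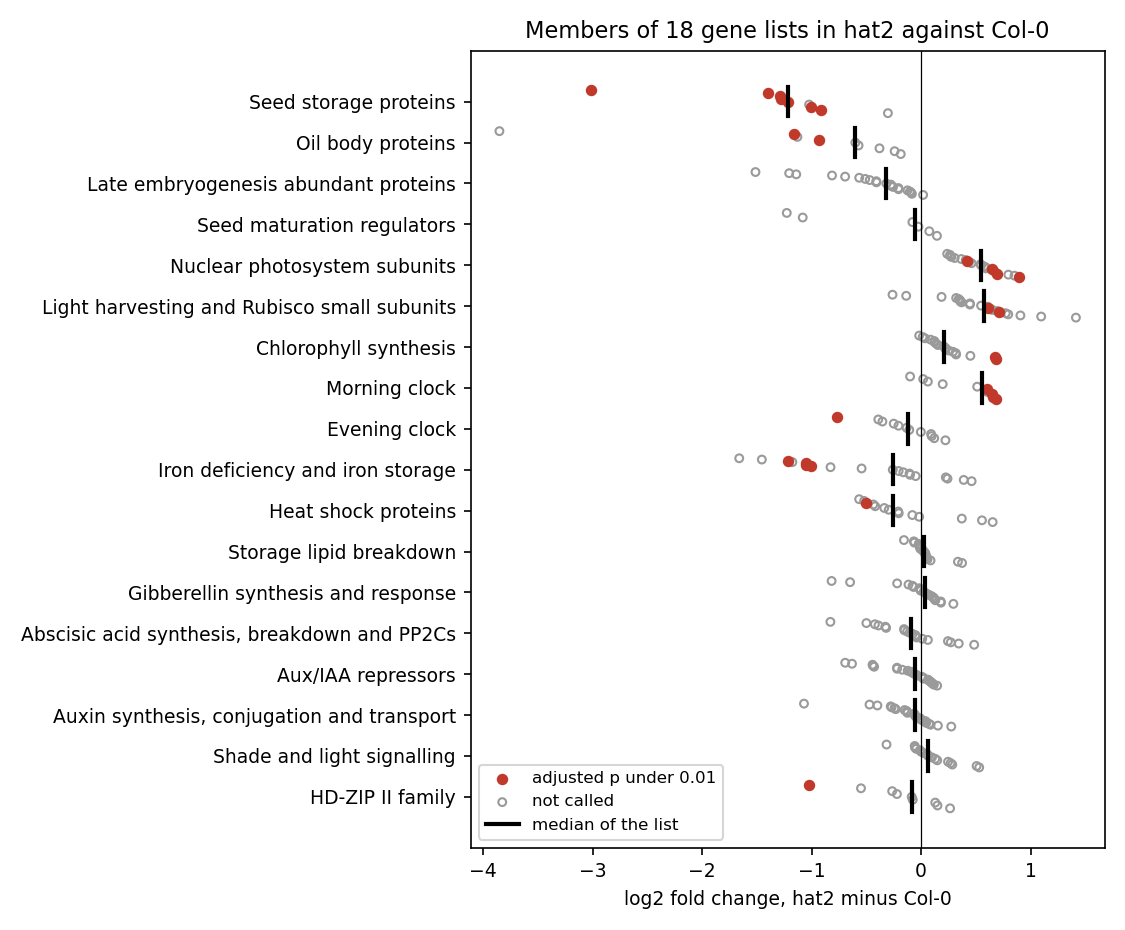
Log2 fold change of hat2 over Col-0 for each tested member of 18 gene lists, with 1 point per gene, called genes filled and a bar at each list's median. All 9 seed storage protein genes lie below 0 with a median of -1.21, and all 23 nuclear photosystem genes lie above 0 with a median of 0.55, while the Aux/IAA repressor list has a median of -0.05.

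Seed storage protein genes were lower in hat2. The list held the 2S albumins SESA1 to SESA5 and the 12S globulins (cruciferins) CRA1, CRU2, CRU3 and AT1G03890, the nitrogen and sulphur reserves that the embryo lays down before the seed dries. Of its 9 members, 7 were called lower and 0 higher, all 9 lay below Col-0 without overlap, and the median was -1.21, beside -0.01 over all genes. Both hat2 libraries were the lowest of 18 for 8 of the 9. Summed over the list they reached 917 and 824 CPM in hat2, against 2116 and 1718 CPM in Col-0, and 1671 to 11884 CPM in the other mutants.

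SESA2 had 33.7 and 25.3 CPM in hat2, against 83.2 and 72.6 CPM in Col-0. Both hat2 libraries lay far below both Col-0 libraries and below the 62.6 to 170 CPM of the other mutants. Its log2 fold change was -1.40 (SE 0.12, adjusted p = 1.68e-06). SESA3, its neighbour on chromosome 4, had 99.8 and 74.5 CPM in hat2, against 184 and 166 CPM in Col-0 (-1.01, SE 0.13). SESA1 had 23.7 and 17.97 CPM in hat2, against 41.3 and 37.7 CPM in Col-0 (-0.92, SE 0.16), and SESA4 had 15.68 and 12.0 CPM in hat2, against 40.9 and 27.0 CPM in Col-0 (-1.28, SE 0.17). These 4 genes lie in a row within chr4:13607329-13614283, and none had a hat2 library above a Col-0 library.

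SESA5, the albumin gene on chromosome 5, moved most and was the most scattered. It had 7.04 and 15.6 CPM in hat2, against 127 and 55.0 CPM in Col-0, while the other mutants ranged from 45.4 to 746 CPM. The groups did not overlap, but the spread within each was over 2-fold. Its log2 fold change was -3.02 (SE 0.46, adjusted p = 0.00169), and between -2.29 and -3.67 with 1 library left out. Its call was lost when hat2 replicate 1 (adjusted p = 0.058) or Col-0 replicate 1 (adjusted p = 0.042) was left out.

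Among the globulins, CRU3 had 199 CPM in both hat2 libraries, against 530 and 393 CPM in Col-0 (-1.21, SE 0.23). CRU2 had 13.4 and 13.2 CPM in hat2, against 35.8 and 29.6 CPM in Col-0 (-1.29, SE 0.21). For both genes the hat2 libraries lay close together and were the lowest of 18. CRA1 had 523 and 466 CPM in hat2, against 1072 and 936 CPM in Col-0, a log2 fold change of -1.02 that missed the threshold (SE 0.22, adjusted p = 0.0200), and AT1G03890 had a value of -0.30.

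The storage calls needed most of the libraries: of the 9 genes 3 were called without hat2 replicate 1, 4 without hat2 replicate 2, 1 when Col-0 replicate 1 was dropped and 5 when Col-0 replicate 2 was. The list's median stayed between -0.95 and -1.41 in these fits, and 7 passed the Wald test of DESeq2. Against the mean of the other 7 mutants 8 of the 9 were called lower, with a median of -1.72, and 8 with a median of -1.77 when the libraries labelled obp1 and wrky14 were left out of that mean.

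**Figure D3:**
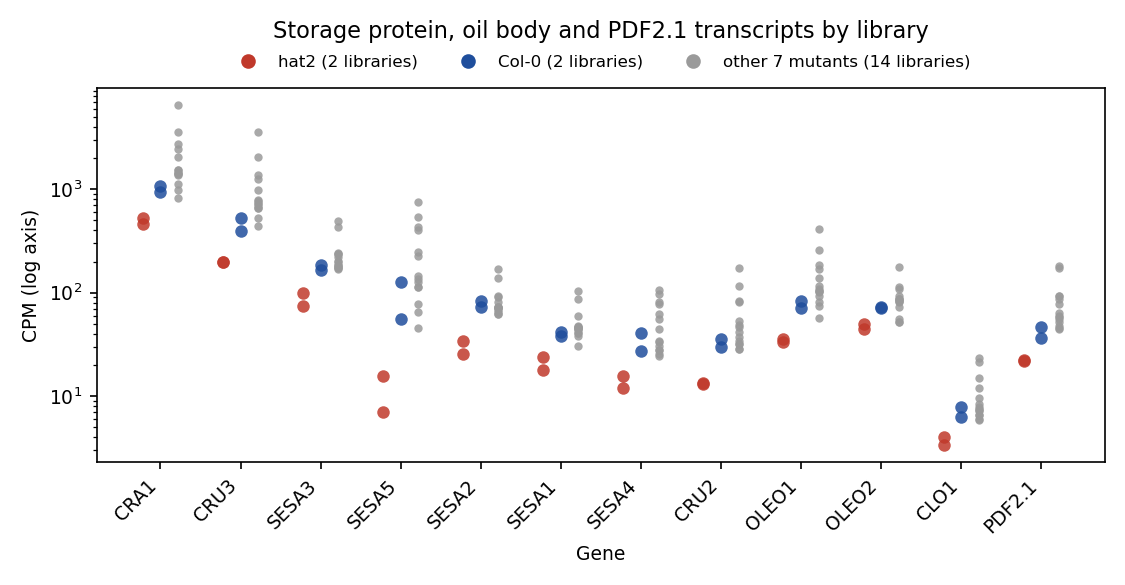
Level of 8 seed storage genes, the oil body genes OLEO1, OLEO2 and CLO1, and PDF2.1 in every library, in CPM on a log axis, with hat2 in red, Col-0 in blue and the 14 libraries of the other mutants in grey. The red points lie below the blue points for each gene, as for CRU3 with 199 CPM in both hat2 libraries against 530 and 393 CPM in Col-0, and the grey points reach well above both.

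The upstream sequences of these genes are shown because most carry the RY core, a motif bound by the B3 factors of seed maturation such as ABI3 and FUS3. The 250 bases before each gene start come from the TAIR10.1 genome, in lower case, with every RY core (CATGCA, on either strand) and every G-box (CACGTG) in capitals. The windows are SESA2 (chr4:13609091-13609340, plus strand), SESA3 (chr4:13611546-13611795, plus strand), SESA5 (chr5:22239188-22239437, minus strand), CRU3 (chr4:14087306-14087555, plus strand) and OLEO1 (chr4:12900180-12900429, plus strand).
SESA2: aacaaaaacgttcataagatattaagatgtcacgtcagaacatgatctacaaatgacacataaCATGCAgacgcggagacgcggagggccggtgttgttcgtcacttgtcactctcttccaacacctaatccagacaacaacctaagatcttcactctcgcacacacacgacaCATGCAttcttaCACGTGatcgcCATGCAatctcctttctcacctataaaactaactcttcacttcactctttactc
SESA3: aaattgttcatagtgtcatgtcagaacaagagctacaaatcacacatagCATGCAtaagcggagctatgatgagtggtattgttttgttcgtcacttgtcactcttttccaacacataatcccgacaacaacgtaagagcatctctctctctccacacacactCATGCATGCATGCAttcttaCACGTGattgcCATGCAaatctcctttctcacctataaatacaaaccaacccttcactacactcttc
SESA5: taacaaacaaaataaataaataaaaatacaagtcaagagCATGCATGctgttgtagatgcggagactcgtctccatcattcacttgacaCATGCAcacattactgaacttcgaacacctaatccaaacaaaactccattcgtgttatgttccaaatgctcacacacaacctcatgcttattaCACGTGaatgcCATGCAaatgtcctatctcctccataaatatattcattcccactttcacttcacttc
CRU3: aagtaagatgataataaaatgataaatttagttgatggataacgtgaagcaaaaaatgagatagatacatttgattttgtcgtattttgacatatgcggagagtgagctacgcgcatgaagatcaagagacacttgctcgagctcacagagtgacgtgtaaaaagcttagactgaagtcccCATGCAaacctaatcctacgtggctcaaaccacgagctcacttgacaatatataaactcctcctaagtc
OLEO1: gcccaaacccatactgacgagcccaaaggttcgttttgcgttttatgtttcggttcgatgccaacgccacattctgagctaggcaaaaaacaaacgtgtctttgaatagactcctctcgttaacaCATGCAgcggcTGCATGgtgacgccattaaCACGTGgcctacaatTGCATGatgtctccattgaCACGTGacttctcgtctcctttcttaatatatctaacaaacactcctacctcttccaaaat
SESA2, SESA3 and SESA5 each hold a G-box with RY cores on both sides of it. CRU3 holds an RY core alone, and OLEO1 holds both motifs. A match is a description of these letters and not a binding site.

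Among all tested genes with such a window (18909), 7.45% held an RY core. It was found in 16 of the 50 lower genes with a window (32.0%) and in 4 of the 75 higher genes (5.33%). The 16 include HAT2 itself and SESA1 to SESA5, CRU3, OLEO1 and CLO1, which are counted again in the lists that follow. By list, 8 of the 9 storage genes and 9 of the 9 oil body genes held it, against 4 of the 21 late embryogenesis abundant genes. The G-box was found in 11 of the 50 lower genes (22.0%) and 10 of the 75 higher genes (13.3%), beside 7.67% of all, and in 5 storage, 4 oil body and 15 late embryogenesis abundant genes. ACGTG, the core of abscisic acid response elements, which the G-box contains, was found in 40.0% of the lower and 33.3% of the higher genes, beside 23.4% of all. The HD-ZIP target sequence CAATNATTG was found in 0 of the 50 lower and 0 of the 75 higher genes, beside 184 of all genes (0.973%). These counts were over both strands, and no test was made of them.

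Genes for oil body proteins, which coat the droplets of storage oil, lay on the same side but moved less. Of 9 members 2 were called lower and 0 higher, all 9 lay below Col-0 without overlap, and the median was -0.60. OLEO1, the gene for the main seed oleosin, had 33.6 and 35.3 CPM in hat2, against 83.6 and 70.8 CPM in Col-0 (-1.16, SE 0.21, adjusted p = 0.00467). Its counts are uncertain where it overlaps AT4G25150, because the sources do not say whether reads were assigned by strand. CLO1, a caleosin, had 3.38 and 4.00 CPM in hat2, against 7.88 and 6.29 CPM in Col-0 (-0.93, SE 0.17).

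Other members lay lower without passing. OLEO2 had 49.6 and 44.6 CPM in hat2, against 70.7 and 72.2 CPM in Col-0 (-0.60, adjusted p = 0.0746), and OLEO3 had 25.7 and 23.57 CPM in hat2, against 27.2 and 31.0 CPM in Col-0 (-0.24). HSD1, a steroleosin, had 0 counts in both hat2 libraries and traces in Col-0. Summed over the list the level was 211 and 194 CPM in hat2, against 307 and 305 CPM in Col-0 and 225 to 835 CPM in the other mutants, so both hat2 libraries were the lowest of 18. With any 1 of the 4 libraries left out, 0 of the 9 passed in edgeR's test, at medians of -0.59 to -0.73. Over all 4 libraries 6 had an unadjusted p under 0.05 and DESeq2 called 2.

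Late embryogenesis abundant proteins protect dry cells, and none of their 21 genes was called (0 by edgeR's test, 10 at an unadjusted p under 0.05, or 47.6% beside 15.69% of all genes, and 1 by the Wald test of DESeq2), with a median of -0.32 and 17 below Col-0 without overlap. EM6 had 27.9 and 27.1 CPM in hat2, against 48.0 and 41.2 CPM in Col-0 (-0.69, adjusted p = 0.169), and RAB18, a dehydrin, had 99.3 and 104 CPM in hat2, against 198 and 160 CPM in Col-0 (-0.81, adjusted p = 0.0651). LEA4-5 and LEA7 had values of -0.10 and -0.12. By contrast with the other 7 mutants' mean, 7 of the 21 were called lower, and 7 against the mean of 5.

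Outside the lists, 2 further called genes are shown beside them. PDF2.1, a gene for a small cysteine-rich defensin-like protein, had 22.2 and 21.6 CPM in hat2, against 46.0 and 36.1 CPM in Col-0 (-0.90, SE 0.11, adjusted p = 0.00021), and 44.9 to 182 CPM in the other mutants. Its hat2 libraries were the lowest of 18, and against the mean of the other 7 mutants it stood at -1.73. AT2G28490, a cupin of the same protein superfamily as the globulins and named here after its values were seen, had 33.1 and 30.7 CPM in hat2, against 66.2 and 57.3 CPM in Col-0 (-0.95, SE 0.15). The call of PDF2.1 was lost without Col-0 replicate 1 by a narrow margin (adjusted p = 0.0104), at a log2 fold change of -0.71.

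Regulators of the seed filling programme were not called. Of 8 genes 6 could be tested, and 0 were called by edgeR's test (1 at an unadjusted p under 0.05, 0 by DESeq2). ABI3, the B3 factor that acts with abscisic acid, had 358 and 334 CPM in hat2, against 325 and 332 CPM in Col-0. FUS3, another B3 factor, was rare, with 0.663 and 0.536 CPM in hat2, against 1.43 and 1.40 CPM in Col-0 (-1.23, SE 0.32, adjusted p = 0.0499).

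Genes of the photosynthetic apparatus lay higher in hat2. Of 23 nuclear genes for photosystem subunits, all had a log2 fold change above 0 (0.24 to 0.89), 22 lay above Col-0 without overlap, and 4 passed the threshold, at a list median of 0.55. PSAH1, a subunit of photosystem I, had 20.2 and 15.8 CPM in hat2, against 8.60 and 10.7 CPM in Col-0 (0.89, SE 0.16, adjusted p = 0.006). PSAN, PSAE1 (both photosystem I) and PSBR (photosystem II) were called at 0.69, 0.65 and 0.42. Each of the 4 overlaps another gene, so its counts may include reads of that neighbour.

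The list's summed level was 2344 and 2086 CPM in hat2, against 1654 and 1640 CPM in Col-0. The other mutants ranged from 1233 to 2516 CPM, on both sides of the hat2 values. Against the mean of the other 7 mutants 9 of the 23 were called higher, and 13 against the mean of 5 mutants without the libraries labelled obp1 and wrky14.

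Light harvesting (LHC) and Rubisco small subunit (RBCS) genes behaved alike. Of 24 members 22 were tested, 20 had values above 0, and 2 were called higher, at a median of 0.58. LHCA3 had 55.1 and 45.1 CPM in hat2, against 29.7 and 31.5 CPM in Col-0 (0.71, SE 0.14, adjusted p = 0.00802). LHCA4 had 104 and 82.6 CPM in hat2, against 59.6 and 62.3 CPM in Col-0 (0.61, SE 0.09) and overlaps AT3G47460. Both encode antenna proteins of photosystem I, and in both the lower hat2 library stood above the higher Col-0 library. RBCS1A, a Rubisco small subunit gene, had 3264 and 2893 CPM in hat2, against 2306 and 2499 CPM in Col-0 (0.36, adjusted p = 0.234). Reads of CAB1, CAB2 and CAB3, whose coding sequences are nearly identical, may be shared among them, so their single values are uncertain.

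HEMA1 was the greening gene that passed with any 1 library left out. It had 79.2 and 73.6 CPM in hat2, against 48.6 and 47.3 CPM in Col-0, a log2 fold change of 0.67 (SE 0.06, adjusted p = 1.68e-06) that stayed between 0.63 and 0.73 with any 1 library left out. CHLH, the large subunit of magnesium chelatase, had 307 and 242 CPM in hat2, against 165 and 177 CPM in Col-0 (0.68, SE 0.10, adjusted p = 0.00082). These were the 2 called of 18 tested chlorophyll synthesis genes, whose median was 0.21. The hat2 values of both lay within the range of the other mutants, 45.5 to 92.1 CPM for HEMA1 and 142 to 344 CPM for CHLH.

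A further list written after the values were seen held 19 Calvin cycle genes, of which 6 were called higher and 0 lower (median 0.32), among them PRK (phosphoribulokinase, 0.64) and RCA (Rubisco activase, 0.56). Without hat2 replicate 2 there were also 6 calls, and without any 1 of the other 3 libraries there were 0. Such a list has no independent weight. Both of these genes also overlap another gene.

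Some morning genes of the circadian clock, whose transcripts peak early in the day in plants grown in light-dark cycles, were higher too. Of 10 members 4 were called higher and 0 lower (median 0.56). LHY had 214 and 191 CPM in hat2, against 126 and 131 CPM in Col-0 (0.66, SE 0.09, adjusted p = 0.00082). CCA1, its closest relative, had 47.1 and 39.1 CPM in hat2, against 24.7 and 28.7 CPM in Col-0 (0.69, SE 0.10). RVE4 had 69.2 and 56.4 CPM in hat2, against 40.6 and 39.5 CPM in Col-0 (0.65), and RVE8, which activates evening genes, had 40.8 and 36.4 CPM in hat2, against 26.0 and 25.01 CPM in Col-0 (0.60). The groups did not overlap for any of the 4, and for RVE4 and RVE8 the Col-0 libraries were the lowest of 18.

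The evening genes, which morning factors repress in the textbook clock, showed 1 call among 12. ELF4, a part of the evening complex, had 32.1 and 29.3 CPM in hat2, against 55.1 and 49.8 CPM in Col-0 (-0.77, SE 0.13, adjusted p = 0.00267), a call that was lost when any 1 of the 4 libraries was left out (adjusted p of 0.0146 to 0.0589). TOC1 and GI had values of -0.11 and -0.35 with adjusted p = 0.631 and 0.431, and the list's median was -0.12. With the other 7 mutants' mean as reference 3 morning genes were called higher, PRR7 was called lower (-0.40), and the evening list had 2 called lower. With 5 mutants as reference, without the libraries labelled obp1 and wrky14, these were 5 morning genes higher and 1 lower and 3 evening genes lower.

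The greening and clock calls depended on single libraries more than their directions did. Leaving out first hat2 replicate 1, then hat2 replicate 2, then Col-0 replicate 1, then Col-0 replicate 2, the photosystem list had 0, 6, 0 and 0 calls, the light harvesting list 0, 5, 0 and 0, the chlorophyll list 1, 2, 1 and 2, and the morning clock list 0, 4, 0 and 1. The medians in these fits were 0.39 to 0.68 for photosystems, 0.46 to 0.73 for light harvesting and 0.47 to 0.61 for the morning clock. The Wald test of DESeq2 called 13, 6, 5 and 5 genes of the 4 lists, all higher. LHCA4 and CHLH were higher in hat2 replicate 1 than in hat2 replicate 2, and their log2 fold changes were 0.45 and 0.51 without hat2 replicate 1.

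**Figure D4:**
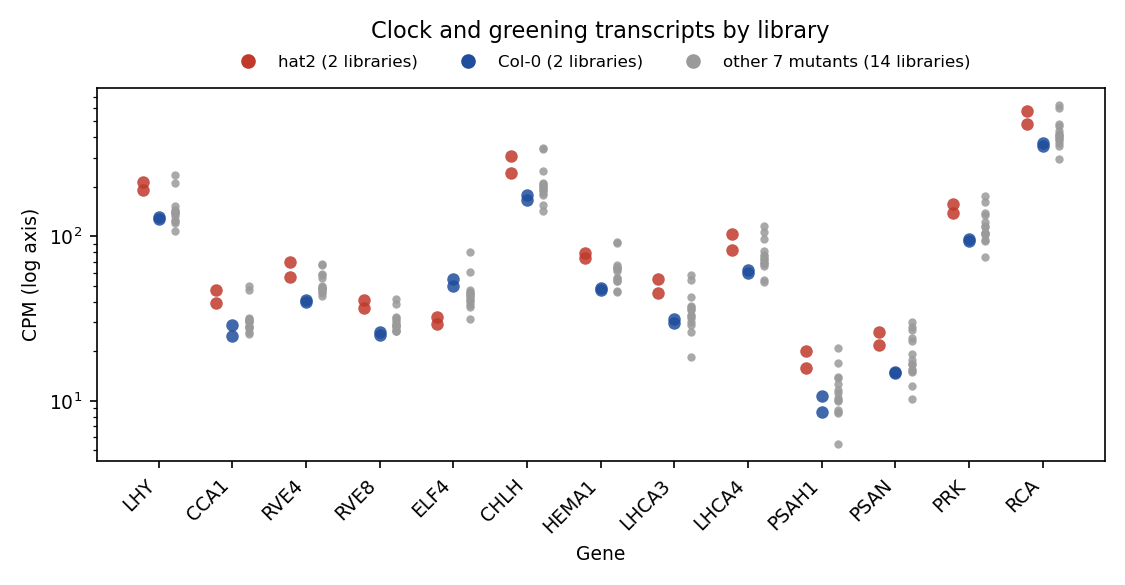
Level of 5 clock genes (LHY, CCA1, RVE4, RVE8, ELF4) and 8 greening genes in every library, in CPM on a log axis, with hat2 in red, Col-0 in blue and the other mutants in grey. Red points lie above blue points for each gene but ELF4, where hat2 has 32.1 and 29.3 CPM against 55.1 and 49.8 CPM in Col-0, and most red points fall within the grey range.

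Some iron deficiency genes were lower in hat2 than in Col-0, and in 3 of the 4 that were called both Col-0 libraries were the highest of 18. BHLH100, a transcription factor gene induced when iron is short, had 2.18 and 2.14 CPM in hat2, against 5.44 and 4.62 CPM in Col-0 (-1.21, SE 0.22, adjusted p = 0.00548). In the other 14 libraries it had 0.87 to 4.04 CPM, so Col-0 was the highest of 18, and against the mean of the other mutants hat2 stood at 0.43 (adjusted p = 0.321), the opposite direction. NAS3, a nicotianamine synthase, had 2.87 and 1.79 CPM in hat2, against 5.44 and 4.40 CPM in Col-0 (-1.05, SE 0.20, adjusted p = 0.00914).

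AT1G47395 and AT1G47400, neighbours on chromosome 1 that the annotation calls uncharacterized proteins, completed the 4 calls. AT1G47395 had 10.4 and 10.6 CPM in hat2, against 21.1 and 21.0 CPM in Col-0 (-1.003, SE 0.15, adjusted p = 0.00105), and AT1G47400 had 1.96 and 1.82 CPM in hat2, against 3.15 and 4.59 CPM in Col-0 (-1.05). The groups did not overlap in either.

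Of 19 tested members of the iron list 4 were called lower and 0 higher, and 13 lay below Col-0 without overlap. The median was -0.26 against Col-0 and 0.10 against the mean of the other mutants, where only the ferritin gene FER2 was called (-0.55), and 0.02 against the mean of 5 mutants without the libraries labelled obp1 and wrky14, with 1 call. Both Col-0 libraries were the highest of 18 for 6 members, and both hat2 libraries were the lowest for none. BHLH38 and BHLH39, relatives of BHLH100, had values of -1.66 and -1.45 with adjusted p = 0.0167 and 0.0229. The ferritin genes FER1 and FER3, which encode iron stores, had 0.39 and 0.23 and did not pass. Leaving out hat2 replicate 1 or either Col-0 library ended all 4 calls, and 1 was left without hat2 replicate 2.

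A few chaperone genes were lower in hat2. HSP70 (AT3G12580) had 60.9 and 60.1 CPM in hat2, against 87.9 and 83.4 CPM in Col-0 (-0.50, SE 0.09, adjusted p = 0.00548), the only call among 14 tested heat shock genes (median -0.25), and it was lost when any 1 of the 4 libraries was left out. The other mutants had 53.8 to 98.2 CPM of it, on both sides of hat2 and Col-0. Against the mean of the other 7 mutants 2 of the 14 were called lower (median -0.55), and 3 against the mean of 5 (median -0.61). On a list of 9 cytosolic HSP70 and HSP90 genes written after the values were seen, 5 were called lower, and both Col-0 libraries were the highest of 18 for 5. With 1 library left out 1 or 2 of these 9 were called, and the summed level overlapped, at 8702 and 8429 CPM in hat2, against 8301 and 8584 CPM in Col-0. HSP70-2, a further cytosolic HSP70, had 30.6 and 26.0 CPM in hat2, against 53.6 and 49.6 CPM in Col-0 (-0.86, SE 0.08, adjusted p = 8.53e-06). The other mutants had 24.0 to 44.4 CPM of it, and hat2 stood at -0.19 against their mean (adjusted p = 0.174).

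**Figure D5:**
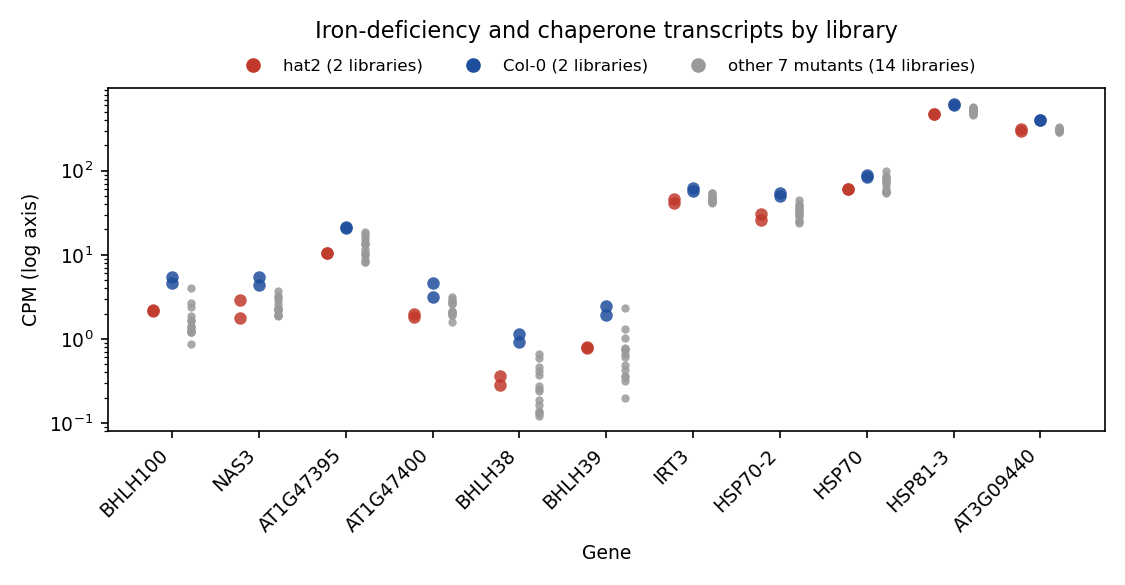
Level of 7 iron-related genes and 4 cytosolic chaperone genes in every library, in CPM on a log axis, with hat2 in red, Col-0 in blue and the other mutants in grey. For BHLH100 and HSP70-2 the blue points lie above all others, at 5.44 and 4.62 CPM and at 53.6 and 49.6 CPM, while the red points lie among the grey ones.

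No other gene of the HD-ZIP II family was called. Of 10 members 9 were tested, and HAT2 was the only call. HAT3, which acts in leaf polarity, had 17.3 and 18.3 CPM in hat2, against 15.9 and 16.6 CPM in Col-0 (0.13, SE 0.09, adjusted p = 0.562). HAT1, a close relative of HAT2, had 0.852 and 0.822 CPM in hat2, against 1.29 and 1.17 CPM in Col-0 (-0.55, SE 0.27, adjusted p = 0.342), too few counts for a firm value.

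ATHB2 and ATHB4, both known from shade responses, had values of -0.22 and -0.08, HAT9 0.27, HAT14 -0.09, HAT22 0.15 and ATHB17 -0.26, with SE of 0.13 to 0.47. ATHB18 had 0 counts in all 4 libraries. The family's summed level was 42.1 and 40.9 CPM in hat2, against 44.9 and 45.7 CPM in Col-0.

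Neither list of auxin genes, to which the known biology of HAT2 points, held a call. Of 24 tested Aux/IAA genes, which encode short-lived repressors of auxin response, 0 were called by edgeR's test (1 at an unadjusted p under 0.05, 0 by DESeq2), at a median of -0.05. IAA9 had 238 and 216 CPM in hat2, against 242 and 243 CPM in Col-0, and the auxin-inducible IAA19 had 1.70 and 2.00 CPM in hat2, against 2.15 and 1.44 CPM in Col-0. Of 26 genes of auxin synthesis, conjugation and transport, 0 were called by edgeR's test (5 at an unadjusted p under 0.05, 0 by DESeq2), at a median of -0.06. GH3.6, an enzyme that conjugates auxin to amino acids, had 43.0 and 39.3 CPM in hat2, against 54.0 and 54.5 CPM in Col-0 (-0.40, SE 0.11, adjusted p = 0.0588). Outside these lists AT5G66260, annotated as a SAUR-like auxin-responsive protein and named after its values were seen, was called higher, with 32.3 and 25.1 CPM in hat2, against 19.7 and 19.3 CPM in Col-0 (0.56, SE 0.10, adjusted p = 0.00731).

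Light signalling genes had 0 calls among 17 by edgeR's test (5 at an unadjusted p under 0.05, 1 by DESeq2) and a median of 0.07. HY5, which promotes growth in light, had 32.8 and 32.9 CPM in hat2, against 36.5 and 31.5 CPM in Col-0, and PIF1, which holds back germination in darkness, had 107 CPM in both hat2 libraries, against 101 and 94.7 CPM in Col-0. ELIP1, which shields young chloroplasts from excess light, had 101 and 94.1 CPM in hat2, against 67.6 and 69.5 CPM in Col-0 (0.51, SE 0.12, adjusted p = 0.0282).

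Gibberellin and abscisic acid set the balance of germination, and neither list held a call. The counts at an unadjusted p under 0.05 in what follows stand beside 15.69% of all genes. Of 20 tested gibberellin genes 0 were called by edgeR's test (3 at an unadjusted p under 0.05, 0 by DESeq2), and GA3OX2, which makes the active hormone, had 99.7 and 106 CPM in hat2, against 94.8 and 93.9 CPM in Col-0. Of 20 tested abscisic acid genes 0 were called (6 at an unadjusted p under 0.05, 1 by DESeq2), and ABA1, an early enzyme of the synthesis, came nearest with 97.5 and 92.0 CPM in hat2, against 77.3 and 72.1 CPM in Col-0 (0.34, SE 0.07, adjusted p = 0.0120). By edgeR's test there were also 0 calls among 19 storage lipid breakdown genes (3 at an unadjusted p under 0.05, 2 by DESeq2), 13 alpha-expansins (2, 0 by DESeq2) and 13 flavonoid genes (3, 1 by DESeq2).

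Few markers of other cell types in the seed could be tested, and none was called. Endosperm and seed coat markers summed to 7851 and 5806 CPM in hat2, against 7048 and 5762 CPM in Col-0 and 4987 to 11767 CPM in the other mutants, and 0 of 8 tested were called by edgeR's test (1 at an unadjusted p under 0.05, 0 by DESeq2). Of that sum EPR1, a cell wall protein gene of the endosperm, gave 7024 and 5095 CPM in hat2, against 6199 and 4966 CPM in Col-0. Root cap markers summed to 12.6 CPM in both hat2 libraries, against 11.2 and 12.1 CPM in Col-0, and 0 of the 5 tested of 7 were called (1 at an unadjusted p under 0.05, 0 by DESeq2). Root hair markers summed to 15.5 and 15.6 CPM in hat2, against 16.8 and 16.9 CPM in Col-0, with 4 of 8 at 0 counts in all 4 libraries and only 1 tested, which was not called.

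The largest rises were in loci with little or no known function. AT4G08093, a transcribed pseudogene at chr4:4990153-4991601, had 439 and 366 counts in hat2, against 2 and 3 counts in Col-0. Summed, that is 805 counts against 5, a ratio of 128 after scaling to library size, with a 95% counting interval of 54.5 to 394. In the other mutants it had 0.0818 to 1.74 CPM, so both hat2 libraries, at 13.9 and 13.1 CPM, were the highest of 18.

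AT1G67105, a non-coding RNA at chr1:25057479-25058264, had 184 and 152 CPM in hat2, against 11.3 and 12.1 CPM in Col-0 and 6.88 to 37.8 CPM in the other mutants. Its log2 fold change was 3.84 (SE 0.11, adjusted p = 3.93e-14), on 5839 and 4256 counts in hat2, against 237 and 318 counts in Col-0. AT1G64795, an uncharacterized gene inside AT1G64790, had 14.4 and 11.4 CPM in hat2, against 0.0955 and 0.227 CPM in Col-0 (6.22, SE 0.37). For this last gene the other mutants ranged from 0.0546 to 15.3 CPM, so hat2 was not alone at the high level.

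Further pseudogenes differed too. AT1G20390 had 170 and 173 CPM in hat2, against 92.1 and 98.7 CPM in Col-0 (0.84, SE 0.09) and 94.96 to 141 CPM in the other mutants. AT5G35935 had 38.9 and 37.7 CPM in hat2, against 17.5 and 20.5 CPM in Col-0 (1.01, SE 0.09), AT3G42806 was higher by 0.73, and AT5G33395 had 3.22 and 2.54 CPM in hat2, against 9.84 and 9.74 CPM in Col-0 (-1.76, SE 0.14). AT5G33390, a glycine-rich protein gene beside the last, had a value of -1.93. For AT5G35935, AT5G33390 and AT5G33395 the other mutants ranged over both the hat2 and the Col-0 levels. For AT5G35935 the median of the other mutants was 36.2 CPM, near the hat2 level. It was called against Col-0 in all 7 of them, in 6 in the same direction as in hat2.

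Among protein-coding genes with larger rises, AT4G33560, annotated as wound-responsive, had 68.7 and 54.6 CPM in hat2, against 30.1 and 25.7 CPM in Col-0 (1.15, SE 0.17, adjusted p = 0.000915). SUS1, a sucrose synthase, had 9.12 and 7.61 CPM in hat2, against 3.87 and 4.32 CPM in Col-0 (1.03, SE 0.16). LOL1, a zinc finger gene related to LSD1, had 11.6 and 9.86 CPM in hat2, against 5.06 and 5.95 CPM in Col-0 (0.96, SE 0.12), and Col-0 was the lowest of 18.

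The remaining rises named by size were AT5G26200, a mitochondrial carrier (0.96), the cytochrome P450 gene CYP706A5 (0.93), NAC1, a factor of auxin-dependent lateral root formation (0.84), FSD1, the chloroplast iron superoxide dismutase (0.80), and CaS, a calcium sensor of the thylakoid (0.76). AT5G26200 and NAC1 overlap other genes. Set against the other mutants' mean, AT4G33560 stood at 0.36, SUS1 at 0.28, LOL1 at 0.11 and FSD1 at 0.01, none of them called. AT5G26200 stood at 0.20 and NAC1 at 0.29, also without a call. CYP706A5 stood at 0.63 and CaS at 0.43, both called.

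Among falls outside the lists, AT1G49470, annotated as a membrane protein, had 10.9 and 8.04 CPM in hat2, against 21.3 and 19.4 CPM in Col-0 (-1.09, SE 0.16). OPR1, a 12-oxophytodienoate reductase that overlaps AT1G76690, had 2.27 and 2.46 CPM in hat2, against 4.97 and 4.93 CPM in Col-0 (-1.06, SE 0.16). For both genes Col-0 was the highest of 18, and against the mean of the other mutants hat2 stood at -0.10 and -0.39 without a call.

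Direct contrasts with 2 mutants used no Col-0 library, and both share the hat2 libraries. Both mutants were chosen for a profile near that of hat2 in these data, and lmi1 also as another HD-ZIP mutant. Few or no calls in these contrasts therefore follow in part from that choice. Both lines are also among those that the paper reports as germinating late, unlike hat2. The HD-ZIP I gene LMI1, targeted in lmi1, was lower there (0.840 and 1.72 CPM, against 6.495 and 6.97 CPM in Col-0). Against the libraries labelled obp1, 26 genes (0.136%) were called, 7 higher and 19 lower in hat2. Against lmi1, 60 genes (0.314%) were called, 26 higher and 34 lower.

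Storage genes were lower in hat2 in both contrasts, with 7 of 9 called against the libraries labelled obp1 (median -1.09) and 6 of 9 against lmi1 (median -1.18). The other seed lists moved less. Oil body genes had 0 calls and a median of -0.18 against the libraries labelled obp1, and 1 lower with a median of -0.84 against lmi1. Late embryogenesis abundant genes had 1 called lower at a median of 0.14 against the libraries labelled obp1, and 3 lower at a median of -0.28 against lmi1. SESA2, at 33.7 and 25.3 CPM in hat2, had 62.7 and 67.8 CPM in the libraries labelled obp1 and 62.6 and 71.6 CPM in lmi1. CRU3, at 199 CPM in both hat2 libraries, had 532 and 653 CPM in the libraries labelled obp1 and 661 and 689 CPM in lmi1. PDF2.1 stood at -1.08 and -1.24 on the log2 scale in the 2 contrasts, and HAT2 itself at -0.80 and -1.05.

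The photosystem list had 0 calls in either contrast, with medians of -0.16 against the libraries labelled obp1 and 0.19 against lmi1, and the light harvesting list had 0 calls with medians of -0.18 and 0.10. Of the morning clock genes LHY alone was called, against lmi1, where it had 137 and 140 CPM (0.55, SE 0.09), and the list's medians were -0.17 against the libraries labelled obp1 and 0.21 against lmi1. The iron list had 0 calls in either contrast, with medians of 0.20 and 0.09. Those zeros are from edgeR's test at 1911 and 2330 genes with an unadjusted p under 0.05 over the whole table, and DESeq2 was not run on these contrasts.

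Some genes separated hat2 from these mutants but not from Col-0, and they are named here after their values were seen. MSRB5, a methionine sulphoxide reductase, had 12.1 and 11.2 CPM in hat2, against 20.3 CPM in both libraries labelled obp1 (-0.80) and 27.1 and 22.7 CPM in lmi1 (-1.10), while its log2 fold change against Col-0 was -0.15. ATSDI1, a gene induced by sulphur shortage, had 7.80 and 9.11 CPM in hat2, against 17.02 and 16.1 CPM in the libraries labelled obp1 and 20.9 and 21.4 CPM in lmi1. The HD-ZIP I gene LMI1, the target in lmi1, had 6.47 and 5.54 CPM in hat2, against 6.495 and 6.97 CPM in Col-0.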

How the data were processed

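Seed of hat2 and Col-0 was sampled as 2 libraries each, polyA-selected and stranded per the labels. The authors trimmed reads with Trim Galore 0.4.2, aligned them to TAIR10 with HISAT2 2.0.5 and assigned them to Araport11 genes with featureCounts 1.5.1, and the deposited table holds whole-number counts per gene without normalization. Whether assignment used strand is not given in the sources used here. RefSeq's TAIR10.1 annotation gave names and biotypes to 37051 of the 37336 genes through their locus identifiers (99.5% at the same position), and its genome gave the 250 bases upstream of gene starts.

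Library totals ran from 18146206 to 33111743 counts. Genes were filtered with filterByExpr, library sizes were adjusted by TMM (trimmed mean of M-values), and all 18 libraries were fitted in 1 model of genotype in edgeR 4.0.16 under R 4.3.3, with the quasi-likelihood test and Benjamini-Hochberg adjustment over all genes tested. The SE was the log2 fold change divided by the square root of F, the common biological coefficient of variation was 5.87%, and CPM used TMM-scaled totals. The counting interval of a ratio is an exact binomial 95% interval and covers counting error only. Replicate counts differed by 7.58 (hat2) and 5.21 (Col-0) times the sampling variance, so none was a library deposited again.

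Genes named were all HD-ZIP II members, the 15 largest rises and the 15 largest falls among called genes that averaged 1 CPM or more and did not overlap between groups, the 10 of smallest p also called against the other mutants, called members of a list and up to 4 further members. The comparison, the gene lists and the rule were chosen with earlier results of these data known. On simulated counts for this comparison the fit recovered 47.2% of genes changed by 0.5 on the log2 scale, 81.4% changed by 1 and 94.0% changed by 2. At these settings there were 0, 3 and 5 false calls. Alternatives were other count filters, DESeq2 1.42.0 size factors and its Wald test, a 4-library model, a replicate block, other thresholds, another reference and leaving out each library.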

Additional observations from a re-analysis of the deposited data

How the results depend on the processing

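The 126 calls became 675 (356 higher, 319 lower) with no count filter, 257 (164, 93) by the Wald test of DESeq2, 434 (250, 184) at an adjusted p under 0.05 and 23 (7, 16) at a log2 fold change of at least 1; the cause of the first 2 was not tested. With the mean of the other 7 mutants as reference there were 242 (139 lower). Leaving out 1 library gave 13 to 93 calls (7 to 76 higher, 5 to 17 lower). With no filter (26321 genes tested) the contrasts with the other 7 mutants, obp1 and lmi1 gave 604, 362 and 442 calls. Without 1 hat2 library they gave 49 to 102, 8 to 19 and 15 to 38, and the contrast with 5 mutants, added after seeing the data, gave 369. HAT2 passed in each of the 11 other fits in which it was looked up (the crossed block was not among them). Against the mean of 5 mutants HAT2 was called lower too, at -0.98. BHLH100 reversed against the mean of the other mutants (0.43).

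A mean of at least 50 counts gave 124 calls (121 shared with the 126), DESeq2 size factors 129 (125 shared) and a model of 4 libraries 140 (85 shared). The replicate deviations of hat2 and Col-0 had a correlation of -0.22, which does not settle whether the shared replicate numbers pair the samples. A replicate block gave 107 calls (64 higher, 43 lower, 103 shared), with CYP706A5, NAC1, CRU3, NAS3, LHCA3, PSBR and CLO1 just past the threshold. Crossing the numbers, an alternative added after seeing the data, gave 122. With 2 libraries a group, changes near 0.5 on the log2 scale were often missed.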
